A study of Homo sapiens with 6 samples.

Results

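Nuclear receptors and their coregulators were followed across 6 bead arrays of SKOV-3 cells, a long-established line grown from a human ovarian cancer. The set held 38 genes chosen by symbol, 33 receptors and 5 coregulators, and every probe carrying 1 of these names as its single gene symbol was taken. This gave 76 of the 47314 probes, which covered 34 of the 38 genes, while the expression of NR1H2, NR2F2, NCOA3 and NCOR1 was not analysed here. Cells of both groups were transfected with siRNA and lysed 48 h later: siCtrl received a scramble siRNA and siHBO1 an siRNA against HBO1, the acetyltransferase encoded by KAT7, with 3 arrays each. The comparison is siHBO1 against siCtrl. A single siRNA condition and a single cell line were used, and nothing in the labels says that the arrays came from separate cultures, so p-values reflect only how these arrays vary within a group, and that variation may be technical.

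Nuclear receptors are transcription factors that bind DNA through a pair of zinc fingers and carry a pocket for small lipophilic ligands such as steroids, retinoids, thyroid hormone, fatty acids and oxysterols. Many of them pair with a retinoid X receptor (RXR) on repeats of a short core motif. Without ligand, several of them hold corepressors such as NCOR1, which bring in the deacetylase HDAC3, and with ligand they recruit p160 coactivators (NCOA1, NCOA2, NCOA3), which bring in histone acetyltransferases. Orphan receptors are those for which no physiological ligand was known when they were named. HBO1 itself has been described as a binding partner of the progesterone receptor.

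The targeted gene and the cells were checked first. KAT7 had log2 values of 5.93, 6.49 and 6.45 on siCtrl 1 to 3 and of 4.77, 5.22 and 5.45 on siHBO1 1 to 3, a log2 change of -1.14 (SE 0.25, n = 3 per group). Each siHBO1 array lay below all siCtrl arrays, the exact permutation test gave p = 0.1, the smallest two-sided p that 3 arrays against 3 allow, and limma gave an adjusted p of 0.999. The probe was detected on 3 of 3 siCtrl arrays and 1 of 3 siHBO1 arrays. Of 6 epithelial and SKOV-3 markers, 5 were detected on all 3 siCtrl arrays, ERBB2 and KRT8 among them, with GRB7 the exception. Of 4 endothelial markers with a probe, 4 were not detected on any array. Of 4 leukocyte markers with a probe, CD14 was detected on all 3 siCtrl arrays, while PTPRC, the common leukocyte antigen, and CD3E, a T cell marker, were not detected on any array. Of 5 fibroblast markers, COL1A1 and COL1A2 were detected on all 3 siCtrl arrays. Arrays of a group differed in a cytokine programme: the mean log2 deviation of 12 NF-kB and cytokine genes from their group was 0.98, -0.53 and -0.45 for the siCtrl arrays in order and 0.73, 0.23 and -0.96 for the siHBO1 arrays. Values with siCtrl 1 and siHBO1 3, the highest and the lowest array, left out are also given below. That fit does not balance the programme between the groups. The mean log2 level of the cytokine genes was 8.32 and 8.41 on the siCtrl arrays kept and 9.80 and 9.29 on the siHBO1 arrays kept. Changes in that fit therefore cannot be told apart from the cytokine programme.

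In the control cells 18 of the 34 genes were detected, which here means that some probe of the gene reached a detection p under 0.01 on each of the 3 siCtrl arrays. They were ESR1, NR3C1, NR3C2, ESRRA, RARA, RXRA, RXRB, PPARD, PPARG, THRA, NR1H3, NR1D2, NR2C1, NR2C2, NR2F6, NR4A2, NCOA1 and NRIP1. Among all genes with a probe and a promoter listed in RefSeq, 8339 were detected in siCtrl and 6694 were not. The members among these were 16 detected and 14 not, a similar share. By the same criterion 17 of the 34 genes were detected in siHBO1, the difference being NR3C2. Its probe ILMN_2210934 was detected at p under 0.01 on 2 of 3 siHBO1 arrays and at p under 0.05 on 3 of 3. A further 9 genes had no probe with a detection p under 0.05 on any of the 6 arrays: ESR2, PGR, ESRRG, RXRG, VDR, THRB, NR2F1, NR5A2 and NR4A3. For PGR, the progesterone receptor, the lowest detection p of its single probe was 0.318, and for VDR, the vitamin D receptor, the lowest over its 2 probes was 0.112. PPARA, NR1D1, RORA, RARB, RARG, NR4A1 and NCOA2 lay between these, with a detection p under 0.05 on some arrays only or, for PPARA, on all 3 siCtrl arrays but never under 0.01. A probe that is not detected shows only that its signal was not above that of the negative control beads. In RNA pooled from a culture, fewer cells that express a gene and less RNA per cell cannot be told apart.

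**Figure D1:**
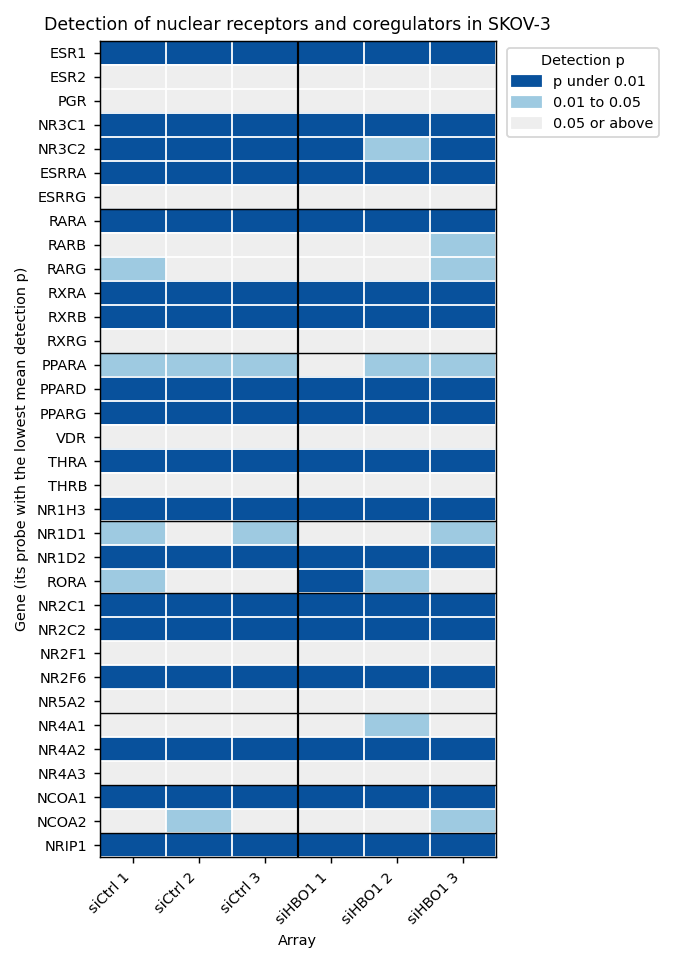
Detection p of the 34 genes (rows, each by its probe with the lowest mean detection p, with lines between classes of receptor and coregulator) on the 6 arrays (columns), dark blue under 0.01, light blue from 0.01 to 0.05 and grey at 0.05 or above. The detected genes are dark on nearly all arrays in both groups, and 9 genes are grey on all 6 arrays.

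Members of one receptor subfamily differed in detection. Of the retinoic acid receptors RARA was detected by 1 of its 3 probes, and its other probes were not detected on any array. RARB was not detected on any siCtrl array and RARG was detected at p under 0.05 on siCtrl 1 and siHBO1 3 only. Of the 3 RXR genes RXRA and RXRB were detected and RXRG was not on any array. The estrogen receptor ESR1 was detected and ESR2 was not, the thyroid hormone receptor THRA was and THRB was not, and the estrogen-related receptor ESRRA was and ESRRG was not. In the RefSeq gene table THRA and NR1D1 overlap on chromosome 17, with 5 protein-coding genes between NR1D1 and RARA and 11 between ERBB2 and THRA, and their paralogs NR1D2, THRB and RARB follow each other on chromosome 3 with 0 protein-coding genes between them. On chromosome 17 the hormone receptors THRA and RARA were the detected ones, and on chromosome 3 it was NR1D2, a REV-ERB repressor of the circadian clock. The positions of the THRA and NR1D1 probes within that overlap were not analysed here.

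The promoters of 3 members are shown because receptors of this family bind the motif searched in them. Sequences are from the RefSeq promoter table (GRCh38.p14), 250 bases before the first start listed for each gene, 5′ to 3′ on the plus strand, with matches to the core motif on either strand in capitals. The core motif was searched as AGGTCA and its variants, which were GGGTCA, then also AGTTCA, and finally GGTTCA. RARB lies at chr3:25428013-25428262, RARA at chr17:40308930-40309179 and PPARG, the fat-cell receptor for fatty acids, at chr3:12287118-12287367.
RARB: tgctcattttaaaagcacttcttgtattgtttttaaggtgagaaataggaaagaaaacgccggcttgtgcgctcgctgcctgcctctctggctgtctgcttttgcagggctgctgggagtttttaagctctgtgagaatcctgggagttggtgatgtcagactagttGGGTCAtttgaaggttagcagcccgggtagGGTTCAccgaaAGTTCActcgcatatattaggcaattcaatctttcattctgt
RARA: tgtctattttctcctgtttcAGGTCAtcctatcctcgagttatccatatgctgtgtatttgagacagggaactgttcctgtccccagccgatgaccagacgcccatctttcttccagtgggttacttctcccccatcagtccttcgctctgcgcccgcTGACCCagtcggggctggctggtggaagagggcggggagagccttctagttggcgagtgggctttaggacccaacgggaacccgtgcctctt
PPARG: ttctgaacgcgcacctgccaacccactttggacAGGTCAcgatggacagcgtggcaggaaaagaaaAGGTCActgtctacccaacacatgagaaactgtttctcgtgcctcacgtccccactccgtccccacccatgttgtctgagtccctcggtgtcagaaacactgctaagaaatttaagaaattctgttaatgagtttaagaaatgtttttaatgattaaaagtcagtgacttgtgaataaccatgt

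In the RARB window the last 2 matches, GGTTCA and AGTTCA, form a direct repeat with 5 bases between, the arrangement known as a retinoic acid response element and described for this gene. Such a repeat was found in 0.0696% of 27305 promoters of the same length, and RARB was the 1 of 34 member promoters in the table to hold it. These 34 are not the 34 genes with a probe, since the table lacks VDR, NR2F6, NR4A2 and NCOA2 and holds NR1H2, NR2F2, NCOA3 and NCOR1. RARB itself was not detected on any siCtrl array. Its probe with the lowest detection p, ILMN_2390526, was under 0.05 on siHBO1 3 only. That probe had log2 values of 5.04, 4.79 and 5.07 on siCtrl 1 to 3 and 4.83, 4.98 and 5.38 on siHBO1 1 to 3. RARA and PPARG, both detected, held 2 core motifs each and no direct repeat with 1 to 5 bases between. At least 1 core motif was found in 12 of the 34 member windows and in 34% of all promoters. The E-box CACGTG, which the clock proteins bind, was found in 2 of 34, NR2C1 and NR2F2, and in 6.49%. NR2F2 is counted for both motifs, but its window reads as codons of the receptor's own zinc fingers. Its matches therefore lie in coding sequence, and the other windows were not checked for this. Counts of the dinucleotide CG in the 250 bases had a median of 15 in 16 members detected in siCtrl at p under 0.01. It was 15.5 in the 14 that missed this criterion, which include those between detected and undetected, such as PPARA. Over all genes with a listed promoter it was 21 in 8339 detected and 8 in 6694 not detected. Motif matches and CG counts are descriptions of these windows, and other starts of the same genes were not searched.

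None of the receptors or coregulators passed the test for siHBO1 against siCtrl. A probe was tested where its detection p was under 0.05 on at least 3 of the 6 arrays, which kept 31 of the 76 probes and 21 of the 34 genes. In limma 0 of the 31 had an adjusted p under 0.05, against 0% of all 20744 tested probes, and the lowest adjusted p among them was 0.999. None had an unadjusted p under 0.05 (0 of 31, background 3.73%). In 0 of 31 did the 3 siHBO1 arrays lie apart from the 3 siCtrl arrays, against 9.98% of all tested probes, 5.43% with siHBO1 higher and 4.55% with siHBO1 lower. Changes ran from -0.28 to 0.39 on the log2 scale, 20 positive and 11 negative, with a median of 0.05 beside 0.00 over all tested probes. Under median scaling, which moved the median of all probes to -0.05, 15 were positive and 16 negative, and without siCtrl 1 and siHBO1 3 there were 14 positive and 17 negative.

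The intervals describe the reported fit, and a fold given as at most some value is the far end of such an interval. They do not cover the choice of processing, on which the folds of dim probes depend. The RORA change, for example, was 0.28 in the reported fit, 0.09 without background correction and up to 0.70 in other fits. The 95% interval of the change lay within 2-fold in either direction for 31 of 31 member probes, compared with 91.8% of all tested probes, and within 1.5-fold for 17 of 31, compared with 44.4%. Standard errors ran from 0.14 to 0.34 log2 with a median of 0.20. For 31 of 31 probes the range of values within at least 1 group was larger than the difference between the group means, which held for 94.9% of all tested probes.

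**Figure D2:**
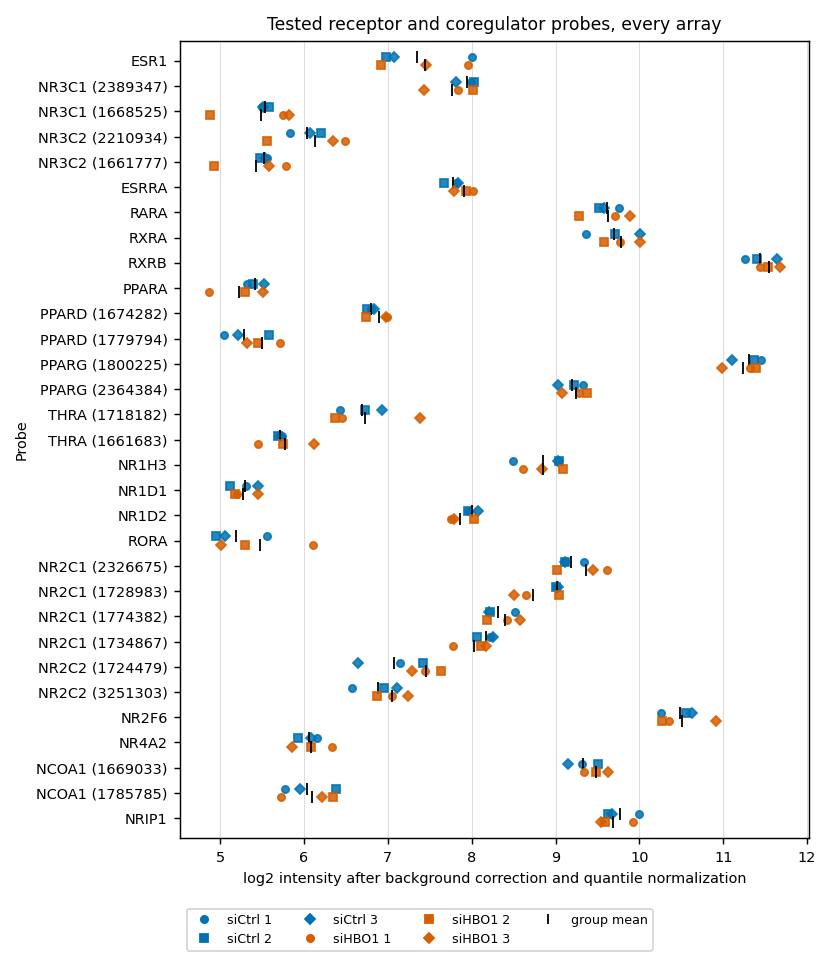
Log2 intensity after background correction and quantile normalization (horizontal axis) of the 31 tested probes (rows, probe number in brackets where a gene has several), with siCtrl in blue, siHBO1 in orange, replicates 1 to 3 as circle, square and diamond, and a black tick at each group mean. In every row the groups overlap. Signals of different probes are not comparable with each other.

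Among steroid receptors, ESR1, the estrogen receptor alpha, had log2 values of 8.01, 6.98 and 7.07 on siCtrl 1 to 3 and 7.95, 6.91 and 7.46 on siHBO1 1 to 3. Replicate 1 was the highest of each group, and those are also the arrays with the highest cytokine values in their groups. The lowest siHBO1 array differed, siHBO1 2 for ESR1 and siHBO1 3 for the cytokine genes. The ESR1 change was 0.09 (SE 0.34, 95% interval -0.68 to 0.86), or at most 1.81-fold either way. This was the widest such limit among the steroid and estrogen-related receptors. Its value was 0.42 without siCtrl 1 and -0.17 without siHBO1 1, and the part of the array state in it was not tested. NR3C1, the glucocorticoid receptor, read 7.99, 8.02 and 7.81 in siCtrl and 7.84, 8.01 and 7.44 in siHBO1 with ILMN_2389347, a change of -0.18 (SE 0.20, interval -0.63 to 0.27). Here siHBO1 3 was the low array. A dimmer NR3C1 probe, ILMN_1668525, gave -0.04 (SE 0.27), and the remaining NR3C1 probe was not detected on any array.

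NR3C2, the mineralocorticoid receptor, had 2 dim probes with changes of opposite sign, 0.09 (SE 0.27) for ILMN_2210934 and -0.10 (SE 0.25) for ILMN_1661777. With both, siHBO1 2 was the lowest of all 6 arrays, at 5.56 and 4.93, and siHBO1 1 the highest, at 6.49 and 5.78. ESRRA, an orphan receptor that drives genes of mitochondrial metabolism, spanned little: 7.82, 7.67 and 7.83 in siCtrl and 8.02, 7.93 and 7.79 in siHBO1. Its change of 0.14 (SE 0.17, interval -0.24 to 0.51) was positive in 18 of 18 alternative fits, from 0.06 to 0.22, and did not pass in any. These fits reuse the same arrays, so a constant sign is not independent support. Other members kept their sign in 18 of 18 fits as well, among them NR1D2, NR2C2 by ILMN_1724479 and NCOA1 by ILMN_1669033.

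Retinoid receptors came next. RARA, a receptor for all-trans retinoic acid, read 9.75, 9.52 and 9.58 in siCtrl and 9.71, 9.28 and 9.89 in siHBO1, where the siHBO1 arrays enclosed the siCtrl ones. Its change was 0.01 (SE 0.19, at most 1.35-fold either way). RXRA, an obligate partner for many receptors, read 9.37, 9.71 and 10.01 against 9.76 and 9.58 on siHBO1 1 and 2, with siHBO1 3 level with siCtrl 3, a change of 0.09 (SE 0.20). RXRB, another such partner, read 11.26, 11.40 and 11.64 against 11.43, 11.53 and 11.68, a change of 0.11 (SE 0.14, at most 1.34-fold). Both RXR genes were highest on replicate 3 of each group, and siHBO1 3 was the array with the lowest cytokine values. Among the siCtrl arrays both were lowest on siCtrl 1, where the cytokine values were highest, and the cytokine values of siCtrl 2 and siCtrl 3 were close (mean deviations -0.53 and -0.45). In siHBO1 the lowest array was siHBO1 2 for RXRA and siHBO1 1 for RXRB. The part of the array state in these values was not tested. Without siCtrl 1 and siHBO1 3 all 3 retinoid receptors had negative changes, -0.19 for RXRA.

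Of the lipid receptors, PPARG is the target of the glitazone drugs and was measured by 2 detected probes of its 4, the others not being detected on any array. The first, ILMN_1800225, read 11.44, 11.37 and 11.11 in siCtrl and 11.32, 11.39 and 10.98 in siHBO1, with a change of -0.08 (SE 0.15). ILMN_2364384 read 9.32, 9.22 and 9.03 against 9.28, 9.38 and 9.08, with a change of 0.05 (SE 0.16). The lowest array of each group was replicate 3 with both probes, and both intervals stayed within 1.34-fold. PPARD, a broadly expressed fatty acid receptor, had changes of 0.10 (SE 0.17) and, by a dimmer probe, 0.22 (SE 0.22), and PPARA, which drives fatty acid oxidation in liver, -0.19 (SE 0.22). Without background correction the dim PPARD and PPARA probes gave 0.06 and -0.06.

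NR1H3, the oxysterol receptor LXR alpha, read 8.50, 9.04 and 9.02 in siCtrl and 8.61, 9.09 and 8.84 in siHBO1. Replicate 1 was the low array of each group, the reverse of ESR1, and the change was -0.01 (SE 0.21, at most 1.40-fold). THRA, a thyroid hormone receptor, read 6.43, 6.72 and 6.93 in siCtrl and 6.46, 6.36 and 7.38 in siHBO1 with ILMN_1718182, so that siHBO1 3 stood above all others. The change of 0.04 (SE 0.29) became -0.42 without siCtrl 1 and siHBO1 3, and a second THRA probe gave 0.06 (SE 0.21).

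Receptors of the circadian clock were represented by NR1D2, NR1D1 and RORA. REV-ERB proteins (NR1D1, NR1D2) repress and ROR proteins activate BMAL1, a core clock gene, through shared sites. NR1D2 read 7.97, 7.96 and 8.08 in siCtrl and 7.76, 8.02 and 7.79 in siHBO1, with 2 siHBO1 arrays below all siCtrl arrays and siHBO1 2 within the siCtrl range. Its change was -0.15 (SE 0.17, interval -0.53 to 0.23), negative in 18 of 18 alternative fits and past the threshold in none. NR1D1, a dim probe, had -0.02 (SE 0.19). RORA was tested through 1 of its 8 probes, detected on 1 of 3 siCtrl and 2 of 3 siHBO1 arrays, with a change of 0.28 (SE 0.31), which was 0.09 without background correction. That RORA probe read 5.56 and 6.11 on replicate 1 of siCtrl and siHBO1 and from 4.95 to 5.29 on the other arrays.

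Among the other orphan receptors NR2C1 and NR2C2, the testicular receptors TR2 and TR4, which bind direct repeats as homodimers or as a pair, had the lowest and the highest change of all 31 probes. NR2C2 read 7.14, 7.42 and 6.65 in siCtrl and 7.45, 7.63 and 7.29 in siHBO1 with ILMN_1724479, a change of 0.39 (SE 0.23, interval -0.14 to 0.91, unadjusted p 0.13). The groups overlapped through siCtrl 2, and the second probe of the gene, ILMN_3251303, gave 0.17 (SE 0.21). Without background correction these were 0.20 and 0.08, and without siCtrl 3 the first was 0.18.

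NR2C1 was read by 4 detected probes that differed in sign. ILMN_1728983 read 9.01, 9.003 and 9.03 in siCtrl and 8.64, 9.05 and 8.51 in siHBO1, so 2 siHBO1 arrays lay below a narrow siCtrl group and siHBO1 2 lay above it, with a change of -0.28 (SE 0.18). ILMN_2326675 read 9.34, 9.11 and 9.11 against 9.61, 9.02 and 9.45, with siHBO1 2 now the lowest and a change of 0.17 (SE 0.19). The remaining probes gave 0.08 (SE 0.18) and -0.15 (SE 0.18). Without siHBO1 2 the first probe reached -0.44 with a limma adjusted p of 0.439, the lowest of any member in any fit. In the platform's probe table ILMN_1728983 and ILMN_1774382 are listed with one transcript and ILMN_1734867 and ILMN_2326675 with another, and each transcript held a probe of either sign.

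NR2F6, an orphan receptor of the COUP family that can repress other receptors, read 10.26, 10.56 and 10.63 in siCtrl and 10.35, 10.27 and 10.91 in siHBO1, a change of 0.03 (SE 0.20). Of the immediate early receptors, which are induced within minutes to hours of a stimulus, NR4A2 was the detected one, at 6.15, 5.93 and 6.09 against 6.33, 6.08 and 5.86, a change of 0.03 (SE 0.20). In the fit with no filter on dim probes, 2 of 76 member probes had an unadjusted p under 0.05, against 3.82% of all 47314 probes. They were ILMN_1786197 of NR2F1 and ILMN_2408566 of NR4A1. Both were not detected on any of the 6 arrays, and their adjusted p was 0.999.

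The measured coregulators overlapped between groups as well. NCOA1, the steroid receptor coactivator SRC-1, read 9.31, 9.50 and 9.15 in siCtrl and 9.33, 9.48 and 9.63 in siHBO1 with ILMN_1669033, a change of 0.16 (SE 0.17, at most 1.45-fold), and a dimmer probe gave 0.06 (SE 0.24). The NCOA2 probe was detected at p under 0.05 on siCtrl 2 and siHBO1 3 and was not tested. NRIP1, which binds liganded receptors and recruits corepressor complexes, read 9.99, 9.62 and 9.68 against 9.92, 9.58 and 9.54, a change of -0.08 (SE 0.18, at most 1.39-fold). Replicate 1 was the highest NRIP1 array in each group.

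**Figure D3:**
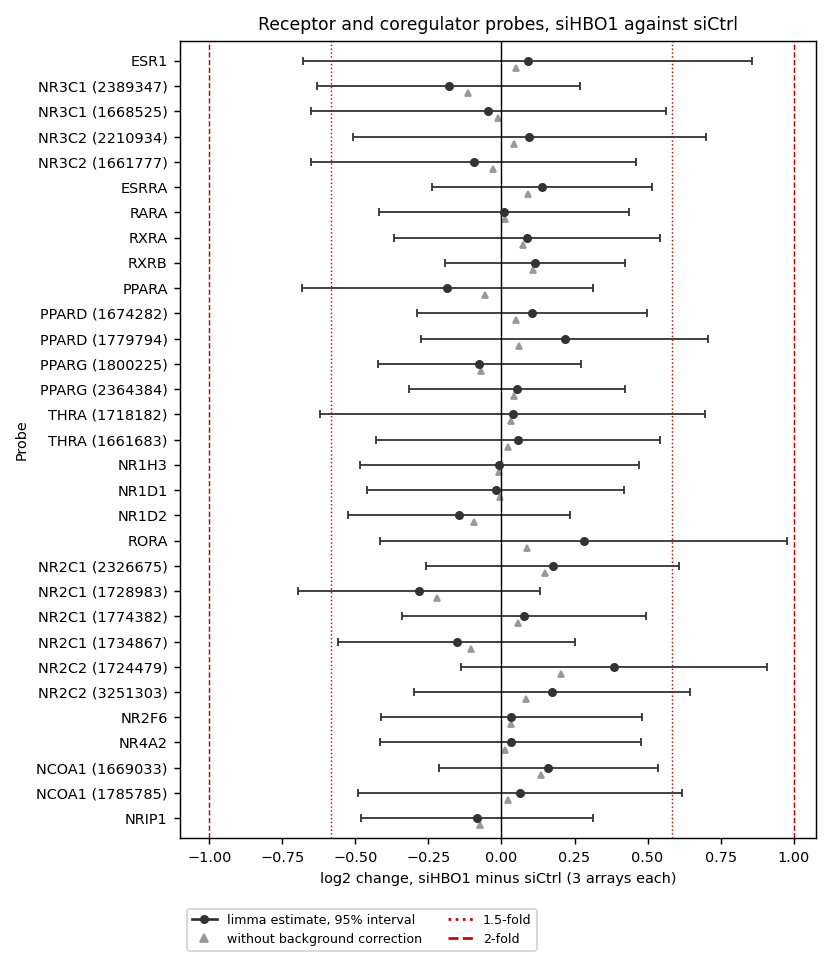
Log2 change of siHBO1 minus siCtrl for the 31 tested probes (black points, limma estimates from 3 arrays per group, bars for 95% intervals), with the estimate without background correction as grey triangles and dotted and dashed lines at 1.5-fold and 2-fold. Every interval includes 0 and stays within 2-fold, and the estimates run from -0.28 to 0.39.

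The order of the arrays within a group differed between members. Of the 31 probes, 6 were highest on replicate 1 of both groups (ESR1, the dimmer NR3C2 probe, RORA, NR2C1 by ILMN_2326675, NR4A2 and NRIP1), compared with 17.5% of all tested probes. A further 8 were highest on replicate 3 of both groups, among them THRA by ILMN_1718182, NR2F6, RXRA and RXRB, compared with 16.5%. The array siHBO1 2 was the lowest siHBO1 array for 13 of 31, compared with 36.6% of all tested probes, and the median change of the members was 0.15 without it and -0.01 without siHBO1 3. No batch is named in the labels that would split the arrays.

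**Figure D4:**
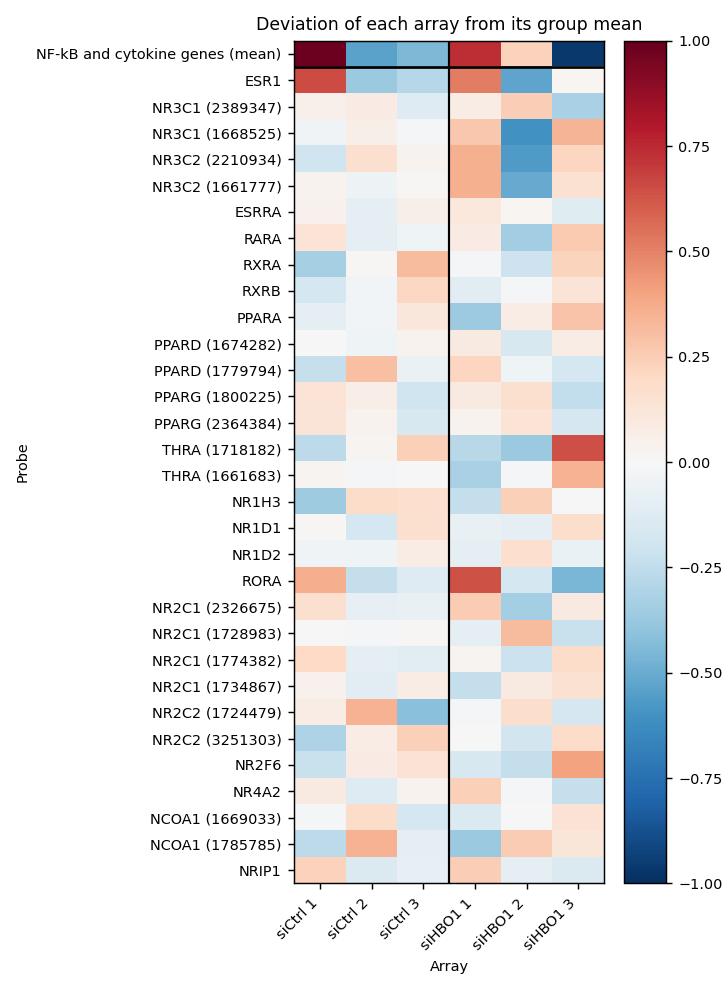
Deviation of each array from the mean of its own group (log2, red above and blue below) for the 31 tested probes, with the mean of 12 NF-kB and cytokine genes in the top row. ESR1 and RORA are red on siCtrl 1 and siHBO1 1 like the top row, while RXRA, RXRB and the THRA probe ILMN_1718182 are blue on siCtrl 1 and red on siHBO1 3, and both NR3C2 probes are blue on siHBO1 2.

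Genes around the receptors were read by 1 probe per gene, the one with the highest mean over all arrays, and 0 of them passed the test in either direction (limma, adjusted p 0.999 for each gene named here). Of 15 other human nuclear receptors 9 had a probe and 3 were tested, with HNF4G, a liver and gut receptor, at -0.39 (SE 0.25, -0.14 without background correction) and NR2E1 at -0.27 (SE 0.18, -0.09 without). Of 25 other coactivators 23 were tested, 12 positive and 11 negative with a median of 0.01 beside 0.01 over all 11917 named genes tested. MED24, a Mediator subunit, had log2 values of 8.61, 8.93 and 8.92 in siCtrl and 9.45, 9.09 and 9.47 in siHBO1. Its change was 0.51 (SE 0.18, unadjusted limma p 0.0199), which its second probe matched at 0.51. The MED24 groups did not overlap, which held for 9.98% of all tested probes and, among the listed genes named here, also for NR2E1, KAT2B, GPS2 and CPT1A. KAT2B, the acetyltransferase PCAF, was at -0.33 (SE 0.15).

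Of 22 other corepressors 19 were tested, 7 positive and 12 negative with a median of -0.03. LCOR, a ligand-dependent corepressor, was at -0.59 (SE 0.26), with its other probes at 0.09 and -0.24, and GPS2, a subunit of the NCOR complex, at 0.33 (SE 0.17). Under median scaling the split was 8 positive and 15 negative for coactivators and 4 positive and 15 negative for corepressors. Receptor chaperones and enzymes of steroid and retinoid metabolism had 11 tested genes, 7 of them positive (5 under median scaling), with PTGES3, the HSP90 co-chaperone p23 that helps steroid receptors bind ligand, at -0.47 (SE 0.19, unadjusted p 0.0395) and HSP90AA1 at -0.17 (SE 0.08, other probes 0.14 and 0.08).

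Target genes gave counts that moved with single arrays. For glucocorticoid and steroid receptor targets, 8 of 11 tested genes were positive with a median of 0.10, and KLF9 and XBP1 were at 0.28 (SE 0.23) and 0.23 (SE 0.20). Of the 9 tested retinoid and vitamin D targets 9 were positive with a median of 0.24, and those with the smallest p were CD14 at 0.38 (SE 0.21) and PLAAT4 at 0.51 (SE 0.37). Without siHBO1 1 these counts were 5 of 11 and 4 of 9. In the retinoid list TGM2, a transglutaminase induced by retinoic acid, read 11.25, 8.90 and 9.03 in siCtrl and 11.21, 10.40 and 8.46 in siHBO1, high and low on the same arrays as the cytokine genes. Of those 12 cytokine genes 10 were positive with a median of 0.25 (2 of 12 without siHBO1 1), among them TNF at 0.61 (SE 0.38, 0.19 without background correction) and TNFAIP2 at 0.30 (SE 0.22), and the part of that programme in the target lists was not tested.

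PPAR and LXR targets had 10 of 11 positive with a median of 0.13, 7 of 11 under median scaling and 6 of 11 without siCtrl 1 and siHBO1 3, with CPT1A, the rate-limiting enzyme of mitochondrial fatty acid import, at 0.26 (SE 0.17, second probe -0.16) and SCD, a desaturase, at 0.31 (SE 0.27). Of the clock genes 11 were tested, 5 positive and 6 negative with a median of -0.02, and without siHBO1 3 there were 10 positive and 1 negative. BMAL1 read 8.64, 8.40 and 8.58 in siCtrl and 8.86, 8.63 and 9.19 in siHBO1. Its change was 0.35 (SE 0.19, unadjusted limma p 0.099, second probe 0.17), and PER3 was at -0.25 (SE 0.19). Of the marker lists KRT8 was at 0.24 (SE 0.18) and KRT18 at 0.35 (SE 0.29, second probe 0.07). COL1A1 was at 0.35 (SE 0.66) and COL1A2 at 0.20 (SE 0.64, second probe 0.51).

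**Figure D5:**
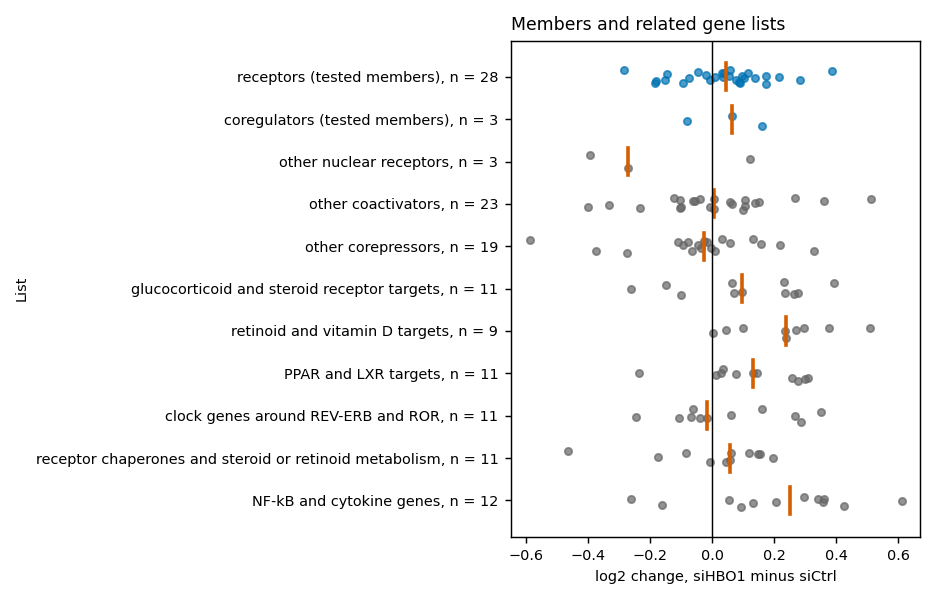
Log2 change of siHBO1 minus siCtrl for the tested member probes (blue, receptors and coregulators) and for single genes of related lists (grey), with the median of each list as an orange line and n the number tested. Medians run from -0.27 for the 3 other nuclear receptors to 0.25 for the NF-kB and cytokine genes, and no point passed the test.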

How the data were processed

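Total RNA of 6 SKOV-3 samples was hybridized to Illumina bead arrays. Each deposited intensity is, per the file headers, the average signal of a probe's beads, linear, with no background subtraction or scaling visible in its values. The deposited detection p-value compares each probe with the array's negative control beads, per the file headers. The authors' processed table is on a log2 scale as judged from its values. It has a rank correlation of 1 with the intensities and a median of 5.99 on every array, no centring by gene or direction, and how it was made is not given in these sources. Per the submitters' processing notes, GenomeStudio and lumi were among the tools.

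Background correction and quantile scaling used neqc (offset 16) in limma 3.58.1 (R 4.3.3, statmod 1.5.0). The 20744 probes whose detection p was under 0.05 on 3 or more of 6 arrays entered lmFit and eBayes (trend on, no covariates), with Benjamini-Hochberg adjustment and a threshold of 0.05. Scripts were tested on simulated data. Of 47314 probes, 30110 have 1 gene symbol in the platform table, 8 several and 17196 none, and 30071 gene identifiers were found in RefSeq (0 symbols changed). Between 42.2% and 44.3% of probes were detected per array at p under 0.05. Precision is limited by the number of arrays.

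All 38 members were to be named, and of each list the 2 tested genes with the smallest p unless some passed the threshold. TGM2 was chosen after its values were seen. The members, lists and tests were chosen with earlier results of these data known. Alternatives covered background, scaling, filter, probes per gene, array weights, trend, replicate block, the authors' values and arrays left out. Replicate numbers name nothing shared in the labels and were not taken to pair the samples.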

Additional observations from a re-analysis of the deposited data

How the results depend on the processing

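In 18 alternative fits 0 member probes passed the threshold in any (smallest limma adjusted p among members from 0.439 to 1.00), and member values changed sign in 60 of 536 cases, at most 12 of 31 probes in the fit without siCtrl 1 and siHBO1 3. Their median change ran from -0.05 to 0.15. Over all probes the count past the threshold, 0 in the reported fit and in 15 alternatives, was 1 with array weights (an unnamed probe), 1 without siCtrl 1 and siHBO1 3 (CXCL8) and 4 with the replicate block, and the cause was not tested. The block changed no member call. For arrays sharing a number, deviations had correlations of 0.56, 0.02 and 0.46. The correlation was -0.55 for siCtrl 1 with siHBO1 3 and -0.41 for siCtrl 3 with siHBO1 1. Deviations within a group cancel out by construction, so positive correlations for some pairs bring negative ones for others. Not every array was most like its own number, since siCtrl 2 was most like siHBO1 3 (0.31). The numbers were not taken as pairs because the labels name nothing that they share, and whether replicates 1 and 3 share a source was not tested. Probes with an unadjusted p under 0.05 ranged from 351 to 2054, against 774 reported and 1409 with the replicate block. KAT7 had a negative change in the 17 alternatives that gave it a value, from -1.47 to -0.37 (adjusted p 0.15 to 1.00), and a filter of detection on all 6 arrays leaves its probe out. The count of 18 detected genes was 9 when every probe of a gene had to be detected, by construction a stricter demand on genes with several probes. No slide is named in the labels, so no slide block could be fitted. Signals near background limit folds of dim probes.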
